A study of Callithrix jacchus with 39 samples.

Results

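Across 8 marmoset tissues, 3724 stretches of chromatin carried H3K27ac in 1 tissue alone and lay more than 100 kb from every H3K4me3 peak of every library. They made up 11.7% of the 31710 one-tissue enhancer-like regions and 5.88% of the 63297 H3K27ac regions catalogued on assembled chromosomes. H3K27ac peaks of a tissue were kept when they overlapped a peak of the other replicate by at least 1 bp, and the kept peaks of all tissues were merged into the catalogue. A region was called enhancer-like when no H3K4me3 peak of any library overlapped it, and one-tissue when the kept peaks of exactly 1 tissue overlapped it. Those with a gap of over 100 kb to the nearest H3K4me3 peak are called far regions here, and the 27986 others, with a gap of at most 100 kb, nearer regions. The far regions were chosen by peak positions alone, read from the same H3K27ac and H3K4me3 lists, so their number, their gap and their restriction to 1 tissue are descriptions and not results of a test. The names refer to these rules. No reporter assay or expression measurement enters them, and the distance is to H3K4me3 found in these tissues, not to annotated gene starts.

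H3K27ac is an acetylation of histone H3 found at active enhancers and promoters, and H3K4me3 is a methylation concentrated at the promoters of genes that are expressed or poised for expression. Enhancers are stretches of DNA bound by transcription factors that raise the output of a promoter, often over long distances by looping of the chromatin fibre. They carry much of the difference in gene regulation between cell types, whereas many promoters are marked in most tissues. Some enhancers act on promoters that are not the nearest ones on the sequence.

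The series is a ChIP-seq study of liver, pancreas, kidney, spleen, heart, skeletal muscle, stomach and colon of the common marmoset (Callithrix jacchus), a New World monkey. Each tissue had 2 numbered replicates for each mark, except heart, which had H3K4me3 for replicate 2 alone. The labels give no age, sex, strain or treatment, and do not say whether the replicates came from different animals, so p-values below measure the spread between tissues in these samples only. Each tissue is a mixture of cell types, and H3K27ac in few cells cannot be told apart from weak H3K27ac in many. The 31 peak lists held between 24590 and 51554 peaks for H3K27ac and between 16386 and 24424 for H3K4me3. The read depth behind them is unknown, so a tissue without a peak at a place may still carry the mark there below the calling threshold. Differences between far and nearer regions were taken in each tissue and tested over the 8 tissues by flipping their signs in every possible way, a two-sided test called the exact permutation test below.

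Liver held the most far regions and heart the fewest. Liver had 1023, skeletal muscle 669, colon 634, pancreas 411, spleen 393, kidney 306, stomach 205 and heart 83. Liver also had the longest H3K27ac lists, of 46317 and 51554 peaks, and heart the shortest, of 26689 and 24590, so both ends of the order coincide with those of list length. The part of list length in that order was not tested. As a share of a tissue's own one-tissue enhancer-like regions the far regions were more even, at 12.3 ± 1.84% (SD, n = 8). That share was highest in pancreas (15.7%) and kidney (14.1%) and lowest in spleen (10.3%) and skeletal muscle (10.5%). Heart, the lowest in number, lay near the middle at 12.1%. Where no single library of another tissue was allowed a peak in the region either, heart kept 43 far regions and spleen 253.

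**Figure D1:**
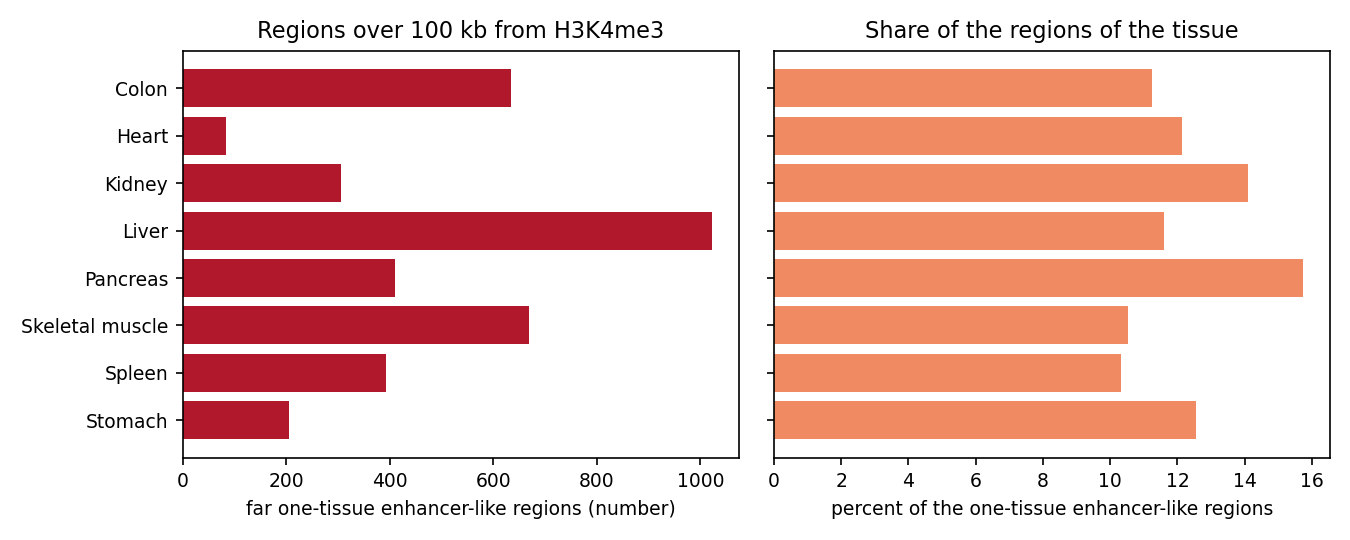
Number of far one-tissue enhancer-like regions in each tissue (left, bars) and their percent of all one-tissue enhancer-like regions of that tissue (right, bars). The number runs from 83 in heart to 1023 in liver, while the share stays between 10.3% in spleen and 15.7% in pancreas.

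Most far regions lay not much beyond the limit, and a small number lay very deep. The median gap was 166 kb, with quartiles at 123 kb and 255 kb. A gap over 500 kb was found in 207 regions (5.56%) and over 1000 kb in 25, of which 18 were liver regions. Just inside the limit were a liver region at 100042 bp (chr10:96638587-96639706, fold enrichment 6.20 and 4.50 in replicates 1 and 2) and a colon region at 100048 bp (chr6:36744086-36745755, 11 and 7.53). Just outside were a pancreas region at 99995 bp (chr5:149475221-149475938, 5.72 and 6.89) and a liver region at 99973 bp (chr11:107371451-107373474, 6.16 and 17.2). The distance to H3K4me3 of the region's own tissue cannot be shorter than that to H3K4me3 of any tissue. In colon its median was 197 kb against 170 kb, in pancreas 226 kb against 170 kb, and in skeletal muscle, which had the shortest, 166 kb against 146 kb. To the nearest promoter-like H3K27ac region of the same tissue, meaning one that overlapped H3K4me3 there, the median ran from 211 kb in skeletal muscle to 278 kb in pancreas.

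The deepest region of all was a pancreas region on chromosome 3 (chr3:162123280-162123849), 1831 kb from any H3K4me3. It was weak, with a fold enrichment of 6.63 and 4.23, and the replicates shared only 6.32% of the length that either covered. The deepest liver region (chr2:26701724-26703055) lay 1491 kb away with 7.002 and 5.53, and its summits in the replicates were 6 bp apart. Other deep regions ranked high in their lists. The deepest kidney region (chr18:17328549-17329677, gap 1090 kb) had 10.4 and 8.41, which placed it at percentiles 88.6 and 82.1 of the kidney lists. The deepest skeletal muscle region (chr12:57959596-57960896, gap 1022 kb) had 9.38 and 8.66, at percentiles 89.0 and 78.6. The deepest regions of stomach (chr3:57665466-57665965, 1102 kb), colon (chr9:81542828-81543205, 1058 kb), spleen (chr6:72526972-72527997, 837 kb) and heart (chr13:2374600-2376791, 706 kb) had mean percentiles between 41.0 and 69.8. In replicates 1 and 2 the heart region stood at percentiles 75.2 and 16.4, and the colon region at 23.7 and 58.9. The replicates shared 21.6% of the covered length in heart and 29.8% in stomach, but 66.6% in spleen and 85.2% in colon.

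The number of far regions and the room that H3K4me3 left for them differed between chromosomes, and these differences were not tested. Of the sequence between the first and last H3K4me3 peak of each chromosome, 960 Mb or 34.7% lay over 100 kb from H3K4me3 on both sides. Far regions were found there at 3.88 per Mb, and nearer regions at 15.8 per Mb of the remaining sequence outside H3K4me3. Chromosome 22, where only 5.76% of the sequence was that far from H3K4me3, had 12 far and 760 nearer regions, a far share of 1.55%. The X chromosome had the highest share, 19.8% (98 far and 396 nearer regions), with 49.4% of its sequence as room, yet its density of far regions was the lowest at 1.40 per Mb of room. Its density of nearer regions was the lowest as well, at 5.61 per Mb of the remaining sequence, so the low density was not particular to far regions. Chromosome 17 combined a share of 19.2% with a density of 6.11 per Mb, and chromosome 19 had the highest density, 6.48 per Mb. Liver was the leading tissue on most chromosomes, but skeletal muscle led on chromosome 17 with 46 of 163 far regions and on chromosome 4 with 61 of 220, and colon on chromosome 9 with 31 of 150. Stretches of unknown sequence in the assembly were not taken out of the room.

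Whether far regions were stronger than nearer ones depended on which of the authors' values ranked them. Each region was given the percentile of its strongest peak within the peak list of its library, averaged over both libraries of its tissue. Ranked by the authors' fold enrichment, the median percentile of far regions was 49.5 ± 5.36 and that of nearer regions 37.0 ± 5.13 (SD, n = 8). The far minus nearer difference of 12.47 ± 2.86 points was above 0 in all 8 tissues (exact permutation test, p = 0.00781, adjusted p = 0.0208). It ran from 7.16 points in spleen to 17.5 points in skeletal muscle. With 8 tissues this test cannot give a p below 0.00781. Ranked by the authors' −log10 p, the same peaks had median percentiles of 40.03 ± 3.78 in far regions and 39.9 ± 4.34 in nearer regions, a difference of 0.18 ± 1.88 points that was above 0 in 5 of the 8 tissues (exact permutation test, p = 0.766). Shifts between -1.52 and 1.72 points were not rejected by that test (95% level). This ranking was added after the data were seen. The fold-based difference exceeded the p-based one by 12.3 ± 2.73 points, with the same sign in all 8 tissues (exact permutation test, p = 0.00781).

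The H3K27ac around the regions was also measured. Within 50 kb on either side, H3K27ac of the same tissue covered a median of 0.904 ± 0.328 kb around far regions and 2.81 ± 0.970 kb around nearer regions (SD over 8 tissues). No other H3K27ac of the tissue lay there for 13.8 ± 4.76% of far and 3.44 ± 1.69% of nearer regions. Within 5 strata of this surrounding length the difference in fold percentile was 3.93 ± 2.02 points (exact permutation test, n = 8; p = 0.00781, adjusted p = 0.0208). With each list limited to its 20000 peaks of highest fold enrichment, it was 2.51 points (exact permutation test, n = 8; adjusted p = 0.0357). Why the rankings by fold enrichment and by −log10 p differ was not tested, and how the background entered either value was not given in the sources used here. The fold percentile was higher in each further distance class, with tissue means of 33.1 ± 3.96 up to 10 kb, 36.7 ± 5.41 from 10 to 50 kb, 45.02 ± 5.75 from 50 to 100 kb, 48.5 ± 4.84 from 100 to 200 kb and 51.0 ± 6.42 from 200 to 500 kb (SD, n = 8). The −log10 p percentile stood between 39.8 and 40.1 in these same classes.

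**Figure D2:**
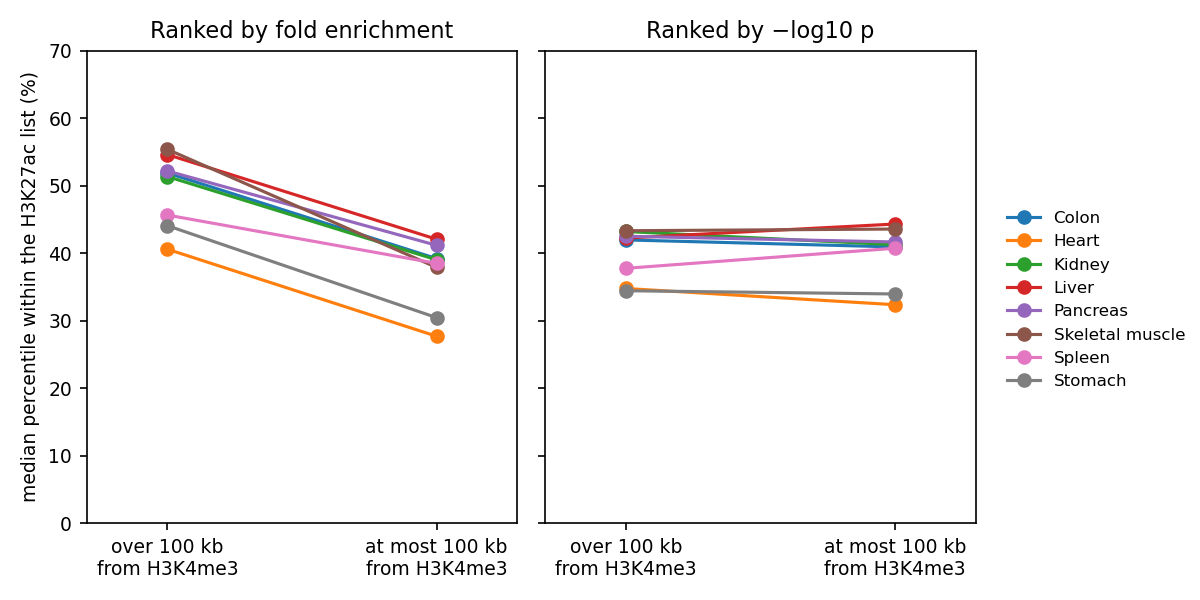
Median percentile of far (left points) and nearer (right points) one-tissue enhancer-like regions within the H3K27ac lists, 1 line per tissue, ranked by fold enrichment (left panel) or by −log10 p (right panel). All 8 lines fall from far to nearer by fold enrichment, by 7.16 to 17.5 points, and by −log10 p they differ by -2.97 to 2.41 points.

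Few one-tissue enhancer-like regions, far or nearer, were among the strongest peaks of their lists, by either ranking. A mean fold percentile of at least 90 was reached by 21 far regions (0.564%), against 0.218% of all one-tissue enhancer-like regions. They comprised 7 liver, 5 colon, 5 skeletal muscle, 3 pancreas and 1 kidney region, with none in heart, spleen or stomach. A mean −log10 p percentile of at least 90 was reached by 11 far regions (0.295%), against 0.319% of all one-tissue enhancer-like regions. By fold percentile the highest was a skeletal muscle region (chr9:94811776-94813618) of 1843 bp. Its fold enrichment was 13.7 and 14.95, at percentiles 98.0 and 95.7, it lay 159 kb from H3K4me3, and no library of another tissue had a peak there. Its mean −log10 p percentile was 93.7, below the 94.7 of the pancreas region with the highest fold percentile. Regions are called strongest below by fold percentile. The strongest liver region (chr11:84236881-84239795) had 17.9 and 23.8, at percentiles 95.7 and 95.4, and its summits were 30 bp apart. A second liver region (chr10:117247495-117248954) had 16.8 and 22.8, with summits 12 bp apart and 96.2% of its length shared by the replicates.

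The strongest kidney region (chr10:73295323-73296213) also lay deep, with fold enrichments of 15.8 and 11.5 and a gap of 811 kb. Another kidney region lay 0.603 kb beside it. In colon the strongest was chr3:45602858-45604142 with 22.5 and 12.1, followed by chr11:22066210-22069814 with 21.0 and 12.1. The region on chromosome 11 spanned 3605 bp, lay 1781 kb from the next one-tissue colon region, and met a stomach peak. In pancreas the strongest was chr5:122727982-122729740 with 20.6 and 10.8, which met a skeletal muscle peak, and in second place chr6:151719089-151720955 with 15.1 and 13.0. The colon pair and the first pancreas region had higher values in replicate 1 than in replicate 2, but fold enrichments of different lists have no common scale. By percentile the replicates of these 3 regions stood at 98.2 and 88.6, 97.4 and 88.7, and 97.3 and 89.5. They lay further apart in the second kidney region (97.7 and 76.1) and the second stomach region (90.8 and 78.2), both named below.

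In the other tissues several of the strongest regions met a peak of another tissue. In spleen chr6:153670432-153671946 had 10.8 and 9.26 and met a liver peak. The second spleen region, chr6:73720384-73723473, had 8.82 and 8.60 and met single peaks of liver, pancreas and stomach. In stomach chr9:23370704-23371530 had 11.2 and 9.60, and chr3:160862204-160863098 had 11.6 and 7.93, with a gap of 664 kb and a colon peak in it. In heart chr5:60100187-60102170 had 8.40 and 9.72 with a kidney peak in it, and chr12:44286430-44287497 had 9.45 and 8.68 with none. The second kidney region (chr6:156356600-156357357, 15.2 and 7.37) and the second skeletal muscle region (chr9:109240877-109243284, 12.8 and 11.2) met no peak of another tissue.

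The replicates were compared within far regions by their summits and by the length they shared. The distance between their strongest summits had a median of 125 ± 13.4 bp in far and 117 ± 12.6 bp in nearer regions (SD, n = 8), and 43.8% of far regions had summits within 100 bp, against 46.4% of all one-tissue enhancer-like regions. The difference in summit distance, 8.50 ± 11.4 bp, did not pass the test (exact permutation test, n = 8, p = 0.0938, adjusted p = 0.125). Region length did not pass either, at 753 ± 86.0 bp and 730 ± 73.5 bp (p = 0.109, adjusted p = 0.125, exact permutation test), nor did the gap between the replicates' fold percentiles, at 15.5 ± 2.76 and 14.2 ± 1.68 points (p = 0.0625, adjusted p = 0.100, exact permutation test). With the 20000 peaks of highest fold enrichment in each list, far regions were shorter by a difference of -68.4 bp, which passed (exact permutation test, n = 8; adjusted p = 0.0125). The length covered by both replicates, as a share of the length covered by either, was lower in far regions, with 56.2 ± 5.14% against 59.9 ± 3.39% (SD, n = 8). The difference of -3.65 ± 2.98 points was below 0 in 7 of 8 tissues and passed (exact permutation test, n = 8; p = 0.0156, adjusted p = 0.0312). It was -1.28 ± 3.52 points within strata of surrounding H3K27ac (exact permutation test, n = 8, adjusted p = 0.411), and it passed no longer when any tissue other than pancreas was left out (exact permutation test, n = 7, adjusted p = 0.0625). The difference then stayed between -4.00 and -2.83 points. With 7 tissues this test cannot give a p below 0.0156, so the loss of passing cannot show that the difference depended on 1 tissue.

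Far regions were met less often than nearer ones by H3K27ac peaks of other tissues. Such peaks could still occur, because a tissue counted only where its replicates overlapped. Peaks of 2 or more other tissues lay in 259 far regions (6.95%), a share that was not compared with other one-tissue regions. In all, 981 far regions (26.3%) held a peak of at least 1 library of another tissue, against 33.8% of all one-tissue enhancer-like regions. Averaged over tissues the share was 30.0 ± 9.06% in far and 40.1 ± 11.7% in nearer regions (SD, n = 8). The difference was -10.1 ± 4.50 points and below 0 in all 8 tissues (exact permutation test, p = 0.00781, adjusted p = 0.0208). It was smallest in pancreas (33.1% in far and 38.6% in nearer regions) and largest in stomach (30.7% and 48.3%). Within strata of length it was -10.6 points and within strata of fold percentile -10.7 points. Within strata of surrounding H3K27ac of the region's own tissue it was -9.29 points. No strata were made of surrounding H3K27ac of the other tissues. By distance class the share was 42.9 ± 12.1% up to 10 kb and 27.3 ± 6.92% from 200 to 500 kb (SD, n = 8).

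The partner tissues of these single peaks differed. Colon far regions were met most often by stomach peaks (11.2%) and stomach far regions most often by colon peaks (13.2%), both being parts of the digestive tract. Skeletal muscle far regions were met most often by heart peaks (7.92%), next by spleen peaks (7.03%) and least often by colon peaks (1.35%). Pancreas far regions met liver (11.2%) and stomach (9.49%) peaks, kidney far regions pancreas peaks (9.48%), and liver far regions kidney peaks (8.02%). Spleen far regions met pancreas peaks most often (17.0%) and liver peaks next (12.47%). Heart far regions met peaks elsewhere most often of all, in 40 of 83, and those were most often kidney peaks (18.1%). These shares were not corrected for the length of the list they are taken from, and differences between partners were not tested.

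**Figure D3:**
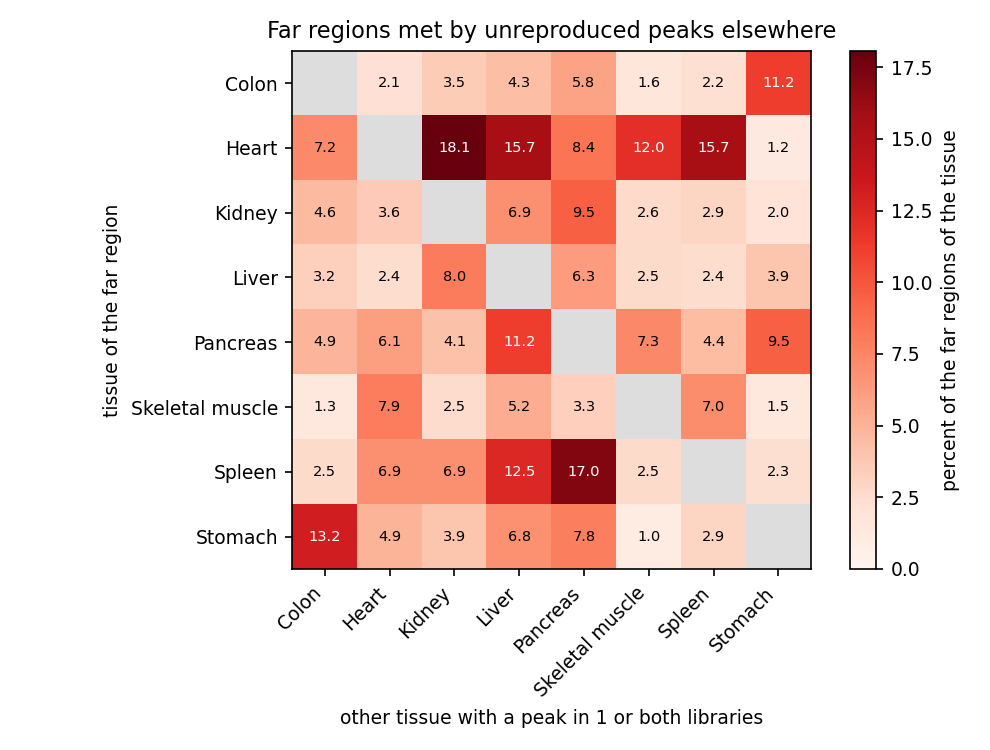
Percent of the far regions of each tissue (rows) that held an H3K27ac peak of another tissue (columns), read from unreproduced peaks because reproduced ones are barred by the rule. The highest value in the colon row is stomach at 11.2%, in the stomach row colon at 13.2% and in the skeletal muscle row heart at 7.92%. The highest values of all rows are kidney in the heart row at 18.1% and pancreas in the spleen row at 17.0%.

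Where far regions had a neighbour within 50 kb, it was more often of their own tissue than for nearer regions. Another one-tissue enhancer-like region lay within 50 kb of 2647 of the 3724 (71.1%). That proportion was larger over all one-tissue enhancer-like regions, at 27023 of 31710. In 1875 of the 2647 (70.8%) the nearest neighbour belonged to the same tissue, against 60.9% of all one-tissue enhancer-like regions with such a neighbour. Per tissue the share was 63.7 ± 12.52% in far and 51.4 ± 14.5% in nearer regions (SD, n = 8), a difference of 12.3 ± 5.57 points and above 0 in all 8 tissues (exact permutation test, p = 0.00781, adjusted p = 0.0208). The share was highest in liver (79.6%), skeletal muscle (74.9%) and colon (73.6%), the tissues with the most regions, and lowest in heart (44.0%). The gain over nearer regions was largest in heart (19.7 points) and pancreas (18.9 points) and smallest in kidney (3.50 points). Within strata of the distance to the neighbour it was 7.46 ± 4.07 points (exact permutation test, n = 8; p = 0.00781, adjusted p = 0.0208). A region of the same tissue within about 13 kb was found beside 39.9 ± 9.60% of far and 40.8 ± 12.1% of nearer regions (SD, n = 8), and the difference of -0.93 ± 4.66 points did not pass (exact permutation test, p = 0.594, adjusted p = 0.594). With each list limited to its 20000 peaks of highest fold enrichment the difference was 6.20 points and passed (exact permutation test, n = 8; adjusted p = 0.0312). In number, 1673 far regions (44.9%) had one, against 47.2% of all one-tissue enhancer-like regions.

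Joined over gaps of up to that distance, the far regions formed 2771 groups, of which 2081 were single regions, 690 held 2 or more and 16 held 5 or 6. The largest group by covered length was in colon (chr6:114094630-114105160), where 6 regions covered 8.92 kb of a 10.5 kb span. H3K27ac covered 8.53 kb there in colon replicate 1 and 6.54 kb in replicate 2, and none in the libraries of the other tissues. The largest liver group (chr17:35824560-35841749) had only 3 regions but covered 7.70 kb, with 7.16 kb and 7.10 kb in the replicates, its members reached percentile 89.5, and 2 libraries of other tissues held up to 1.13 kb. The largest skeletal muscle group (chr7:154489897-154505136) had 6 regions over 15.2 kb, and the largest pancreas group (chr14:39159104-39165461) 4 regions over 6.36 kb. Neither held H3K27ac of another tissue. The largest groups of spleen (chr17:62550548-62559828, 5 regions, 5.08 kb), heart (chr21:32551457-32562241, 3 regions, 3.58 kb), kidney (chr6:136151089-136160057, 3 regions, 3.28 kb) and stomach (chr6:87435870-87439081, 2 regions, 3.18 kb) were smaller, and each met a peak of 1 or 2 libraries of other tissues.

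Some stretches without H3K4me3 held far regions of many tissues, and others mainly of 1. The far regions fell into 1329 intervals between neighbouring H3K4me3 peaks. In 530 of these there was 1 far region, in 799 there were 2 or more, and 34 intervals with 10 or more held 468 far regions (12.6%). Of the 799, 299 (37.4%) held far regions of 1 tissue only. That share was not tested. It was not compared with nearer regions, nor with the share that the unequal numbers of far regions per tissue would give. The fullest interval, chr1:40577942-41533106, was 0.955 Mb long and held 26, of which 19 were colon, 5 liver and 2 stomach regions. The interval chr5:115578411-116480081 was also led by colon, with 12 of 20, and chr13:48730193-49831546 by liver, with 10 of 16. By contrast, chr10:93111272-93841027 held 24 far regions of 7 tissues, led by spleen with 7 and liver with 6, and chr4:134776339-135435079 held 17 of 7 tissues, led by skeletal muscle with 6. The interval on chromosome 10 also held 25 enhancer-like regions shared by 2 or more tissues, against 4 to 8 in the other fullest intervals. Heart had no far region in any of these 5. Many of the regions counted here were weak peaks. The 19 colon regions on chromosome 1 had fold percentiles from 2.47 to 65.1, against a median of 51.9 over all colon far regions. The 7 spleen regions on chromosome 10 stood at 4.06 to 19.3, against a spleen median of 45.7. The 10 liver regions on chromosome 13 ran from 17.5 to 85.9, with a liver median of 54.6.

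**Figure D4:**
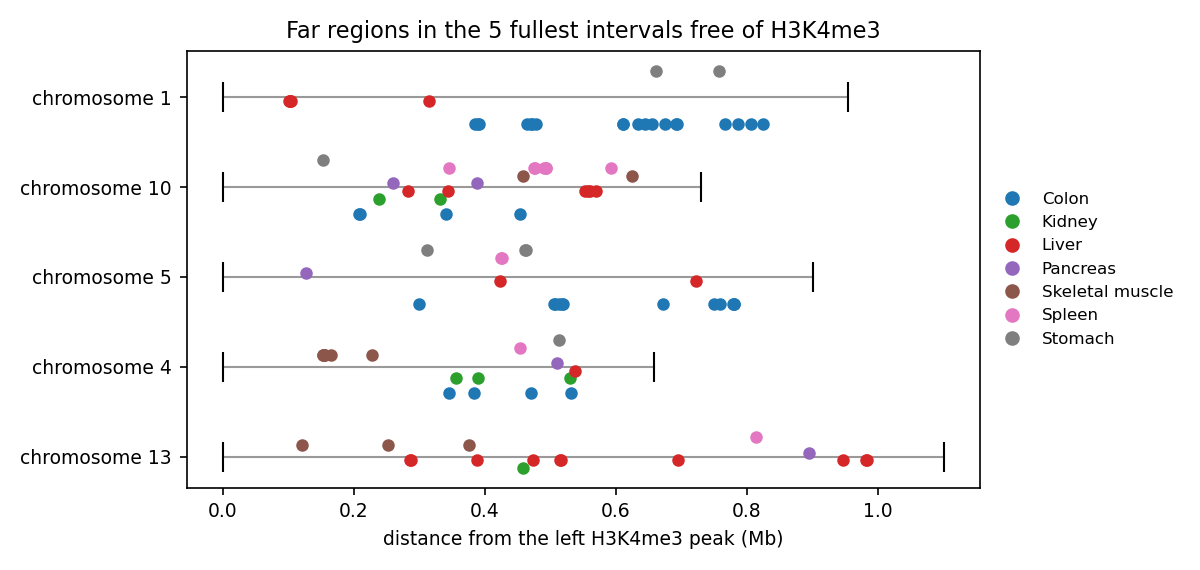
Positions of far regions (points, coloured by tissue, set off vertically by tissue) in the 5 intervals free of H3K4me3 that held the most of them; the ticks mark the H3K4me3 peaks on either side and the axis gives Mb from the left one. The chromosome 1 interval holds 19 colon regions among 26, while the chromosome 10 interval holds 7 tissues among 24.

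The nearest H3K4me3 region was acetylated in the far region's own tissue more often than it was, in that same tissue, beside the far regions of other tissues. These comparisons were added after the data were seen. H3K4me3 peaks of all libraries were merged, and a merged region counted as acetylated in a tissue when its kept H3K27ac peaks overlapped it. This was so for the own tissue in 1629 far regions (43.7%), against 59.7% over all one-tissue enhancer-like regions. For each tissue the share among its own far regions was set against the share in the same tissue among the far regions of the other tissues, so that list length is the same on both sides. Own regions had 41.2 ± 5.62% and regions of other tissues 33.2 ± 4.01%, a difference of 8.02 ± 3.44 points and above 0 in all 8 tissues (exact permutation test, p = 0.00781, adjusted p = 0.00938 over 6 comparisons). It was largest in colon (49.8% against 35.5%) and skeletal muscle (42.5% against 30.3%) and smallest in stomach (38.0% against 33.3%). The far regions had 1691 distinct nearest H3K4me3 regions, and counted once per tissue the difference was 6.69 points. For H3K4me3 itself the shares were 60.9 ± 8.89% and 54.0 ± 7.96%, a difference of 6.84 ± 3.02 points (exact permutation test, n = 8; p = 0.00781, adjusted p = 0.00938).

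This tie to the nearest H3K4me3 region was weaker for far than for nearer regions. In nearer regions the own-tissue share of H3K27ac was 57.9 ± 7.93% and that of other tissues 40.7 ± 5.67%, a difference of 17.1 ± 5.30 points (exact permutation test, n = 8; p = 0.00781, adjusted p = 0.00938). The far difference minus the nearer difference was -9.10 ± 3.88 points and below 0 in all 8 tissues (exact permutation test, p = 0.00781, adjusted p = 0.00938). For H3K4me3 it was -6.12 ± 4.35 points, below 0 in all tissues but heart (exact permutation test, n = 8, p = 0.0156, adjusted p = 0.0156). In 35.5% of far regions no tissue had kept H3K27ac on the nearest H3K4me3 region, against 19.7% of nearer regions, a difference that was not tested. The nearest H3K4me3 region was acetylated in the region's own tissue alone for 269 far regions (7.22%) and 3433 nearer regions (12.3%), which was not tested either. Nearness on the sequence does not show which promoter a region acts on.

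**Figure D5:**
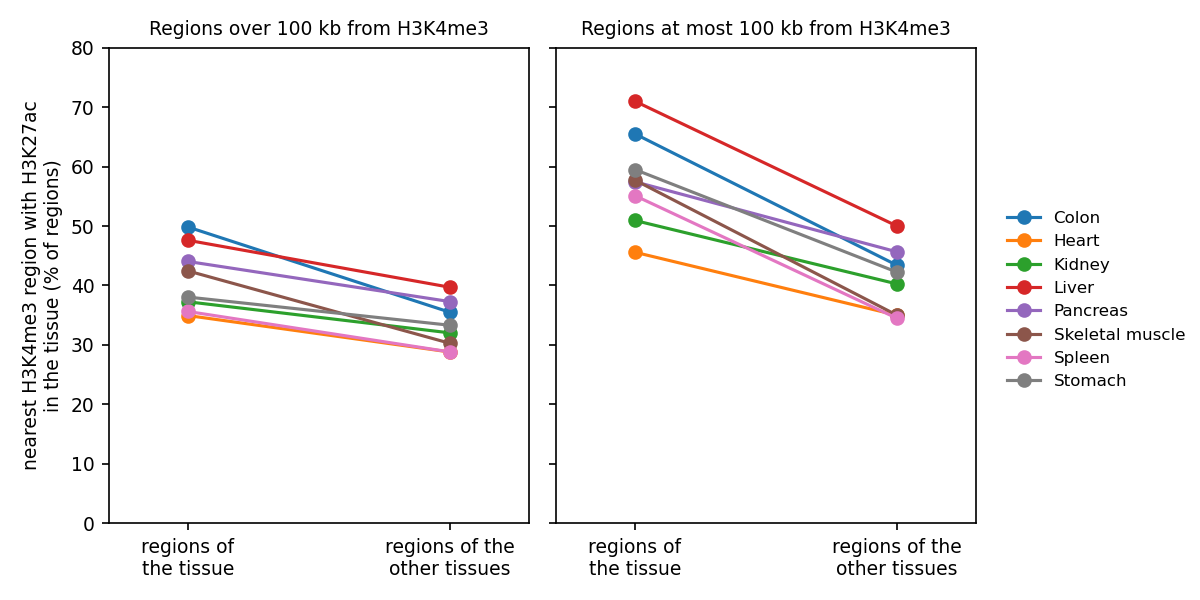
Percent of regions whose nearest H3K4me3 region carried H3K27ac in a given tissue, for regions of that tissue (left points) and of the other 7 tissues (right points), 1 line per tissue. For far regions (left panel) the lines drop by 4.75 to 14.4 points, and for nearer regions (right panel) by 10.6 to 22.7 points.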

How the data were processed

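The deposited files are narrowPeak lists, 1 per ChIP library. Bedtools 2.26, MACS2 2.1.1.20160309, SAMtools 1.3.1 and Bowtie 1.1.2 are listed, with no role, in the submitters' processing notes, and peak names carry calJac3, taken as the genome build. The part the 8 inputs played was not given in the sources used here. The deposited fold enrichment (a ratio), −log10 p and −log10 q are values of the authors' caller, used only to rank or filter peaks within 1 list. The deposited score is the −log10 p times 10, cut to a whole number, and was not used. The lowest −log10 q was 3.04 and the shortest peak 300 bp. Depth is unknown.

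Regions were built and tests run in Python 3.11.15 with numpy 2.4.6, matplotlib 3.10.9 served for plots, and the code was tested on simulated data. Sequences outside the 24 assembled chromosomes were left out, which removed 307 of 4031 regions that met the rule. Far and nearer regions were compared per tissue on 8 measures by two-sided exact permutation tests over tissues, with Benjamini-Hochberg adjustment over the 8. The ranking by −log10 p, counts made with it, the strata of surroundings, strength and neighbour distance, and the 6 comparisons of the nearest H3K4me3 region, adjusted over those 6, were added after the data were seen. Members, lists and tests were chosen with earlier results of these data known. Regions named are the 2 with the highest mean fold percentile and the 1 with the largest gap per tissue, the group with the largest covered length per tissue, the 5 intervals with most far regions, and the 2 regions on either side of the limit. Positions are 1-based on calJac3, and genes and sequences were not analysed here.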

Additional observations from a re-analysis of the deposited data

How the results depend on the processing

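The differences in single peaks elsewhere and neighbours of the same tissue, and the own-tissue difference in H3K27ac at the nearest H3K4me3 region of far regions (unadjusted p), kept their direction and passed under every alternative run on them. The other nearest-region comparisons were not rerun. The alternatives were a gap of 50 or 200 kb, other nearer classes (not for the nearest H3K4me3 region), a −log10 q floor of 5, lists limited to the 20000 peaks of highest fold enrichment (20000 strongest), overlap of 50%, no H3K27ac library of another tissue (not run for peaks elsewhere), all sequences, length strata (not for the nearest H3K4me3 region), and leaving out each H3K4me3 library or tissue. Single-peak differences ranged from -13.7 to -6.08 points, with -6.08 at 50 kb. Read from the replicate 1 lists of other tissues alone, in the same regions, the single-peak difference was -6.29 points. Neighbour differences ranged from 7.46 (strata of neighbour distance) to 19.4 points (20000 strongest). The fold percentile difference of 12.47 points did not pass when ranked by −log10 p (0.18), and passed under the others run but at 2.51 points with the 20000 strongest and 3.93 within strata of surroundings. Members per tissue averaged 465.5, and 1076 with a gap over 50 kb, 176 over 200 kb and 257 with the 20000 strongest peaks. For the measures below the cause was not tested. Region length differed by 24.75 bp (50 kb), 35 bp (nearer class up to 10 kb), 24.25 bp (overlap of 50%) and 35.4 bp (no library of another tissue), all passing, and by -68.4 bp with the 20000 strongest peaks, the opposite direction. With 1 H3K4me3 library or tissue left out it ranged from 13.1 bp, without colon, to 28.6 bp, without pancreas, where it passed. The summed peak length of replicate 2 alone, in the same regions, differed by -8.44 bp and that of replicate 1 alone by 21.25 bp, neither passing. Clustering within about 13 kb differed by 6.20 points with the 20000 strongest peaks, reversed and passing, by 0.55 (50 kb), 0.36 (nearer class up to 10 kb) and 0.87 (no library of another tissue), and by -1.92 to 0.049 (without skeletal muscle) with 1 left out. Shared covered length differed by -3.25 (200 kb), -2.39 (length strata) and -1.28 (surroundings), not passing, and by -4.22 to -2.83 with 1 left out. Summit distance passed at 9 bp (50 kb) and 14.6 bp (20000 strongest) but was 0.78 bp within length strata and 4.56 bp with no library of another tissue, not passing, and the replicate percentile gap at 1.23 points (50 kb). With 1 left out they ranged from 6.25 to 11.1 bp and from 0.936 to 1.65 points, passing without pancreas, and the percentile gap also without pancreas H3K4me3 replicate 2.

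With the replicate number as a block, the fold percentile difference was 13.7 points, that of single peaks elsewhere -6.99 points and that of region length 6.41 bp, and no call changed. Replicate numbers are not stated to mark shared animals. The unknown depth limits every statement of absence.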

Other observations

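Among enhancer-like regions reproduced in 2 or more tissues, 588 of 8846 (6.65%) lay over 100 kb from H3K4me3, against 11.7% of those of 1 tissue. The share was 7.79% for 2 tissues, 5.32% for 3, 4.66% for 4, 3.12% for 5, 3.96% for 6, 4.50% for 7 and 4.08% for 8, with only 2 of 49 regions in the last. These shares were not tested, because breadth and distance both enter the choice of the far regions, and regions merged over more tissues are longer.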
